A study of Mus musculus with 6 samples.

Results

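The 10 genes described here encode amino acid transporters of the plasma membrane, *Slc7a1*, *Slc7a2*, *Slc7a5*, *Slc7a6*, *Slc3a2*, *Slc38a1*, *Slc38a2*, *Slc1a4*, *Slc1a5* and *Slc6a6*. They were chosen by name, and all 10 were found by symbol among the 20327 gene symbols of the tag counts. Their levels were compared between EGFP+ and EGFP- cells sorted from the inflamed mouse colon, to see which transporter transcripts differ between stromal cells with and without signal of the *Il11* reporter. Amino acids cross the cell membrane on carriers with distinct substrates. The SLC7 exchangers encoded by *Slc7a5* and *Slc7a6* swap amino acids across the membrane and need the heavy chain encoded by *Slc3a2*. Uniporters of the same family admit arginine, lysine and ornithine. Sodium-coupled carriers of the SLC38, SLC1 and SLC6 families accumulate small neutral amino acids or taurine. In fibroblasts these carriers supply glutamine, arginine and other building blocks of protein and collagen, and transcription of several of them is known to respond to amino acid shortage through the transcription factor ATF4.

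All 6 libraries came from *Il11-Egfp* reporter mice on the C57BL/6 background, 9 to 15 weeks of age, which carry a bacterial artificial chromosome with *Egfp* and a polyA signal placed in *Il11*, so that the *Il11* promoter drives EGFP. The mice of both groups drank 1.5% dextran sulfate sodium (DSS), which injures the colon epithelium, for 5 days and then water, and cells were sorted on day 7. Viable Ter119-CD45-CD31-EpCAM- cells, a fraction from which red cells, leukocytes, endothelium and epithelium are depleted, were divided by EGFP into EGFP-Negative (EGFP-) and EGFP-Positive (EGFP+) cells (n = 3 libraries per group, from 3 mice per the methods). Libraries were made by 5′Tag-seq, which reads tags from the 5′ side of polyA RNA, and held 1057170 to 1169817 tags in EGFP- and 1022851 to 1049048 tags in EGFP+ replicates. The floor was set at 3 tags, which correspond to 2.56 to 2.93 CPM (the usual scaling of a count to the total of its library). Since PCR copies are not separate molecules, this floor and the counting intervals given for tags speak of counting error alone.

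*Il11* had 28, 51 and 89 tags in EGFP- and 1357, 732 and 2658 tags in EGFP+ replicates 1, 2 and 3, so every library stood on the side its label gives. Part of these tags can come from the reporter, which shares the 5′ end of *Il11*. Fibroblast markers were abundant in both groups. The 11 markers of the list, led by *Dcn*, which encodes decorin, summed to 23340, 23520 and 27140 CPM in EGFP- and to 39900, 34870 and 31680 CPM in EGFP+ replicates, and all 11 were detected in each library.

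In normalized CPM (scaled by edgeR's TMM method), the tags of the 10 transporters together came to 846.9, 797.1 and 868.7 in EGFP- replicates (837.6 ± 36.7, SD, n = 3) and to 811.9, 691.4 and 724.8 in EGFP+ replicates (742.7 ± 62.2, SD, n = 3). The groups overlapped, although each EGFP+ library was below the EGFP- library of the same number. Of the 10 genes, 7 had at least 10 tags in at least 3 libraries and were tested in the fit over all 9334 genes that did. Calls required an edgeR adjusted p below 0.05, by the quasi-likelihood test, together with a change of over 2-fold. No transporter was called higher in EGFP+ cells (0 of 7 with edgeR and with DESeq2, and 1 at an unadjusted p under 0.05, as were 12.2% of all tested genes), where 3.44% of all tested genes were. *Slc7a2* was called lower, 1 of 7 (2 at an unadjusted p under 0.05, as were 14.5% of all tested genes), where 6.37% of all tested genes were. The 7 transporters had a median log2 fold change of -0.17, and all tested genes one of -0.01. *Slc7a5*, *Slc38a1* and *Slc1a4* were too low to be tested and are given as tags.

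**Figure D1:**
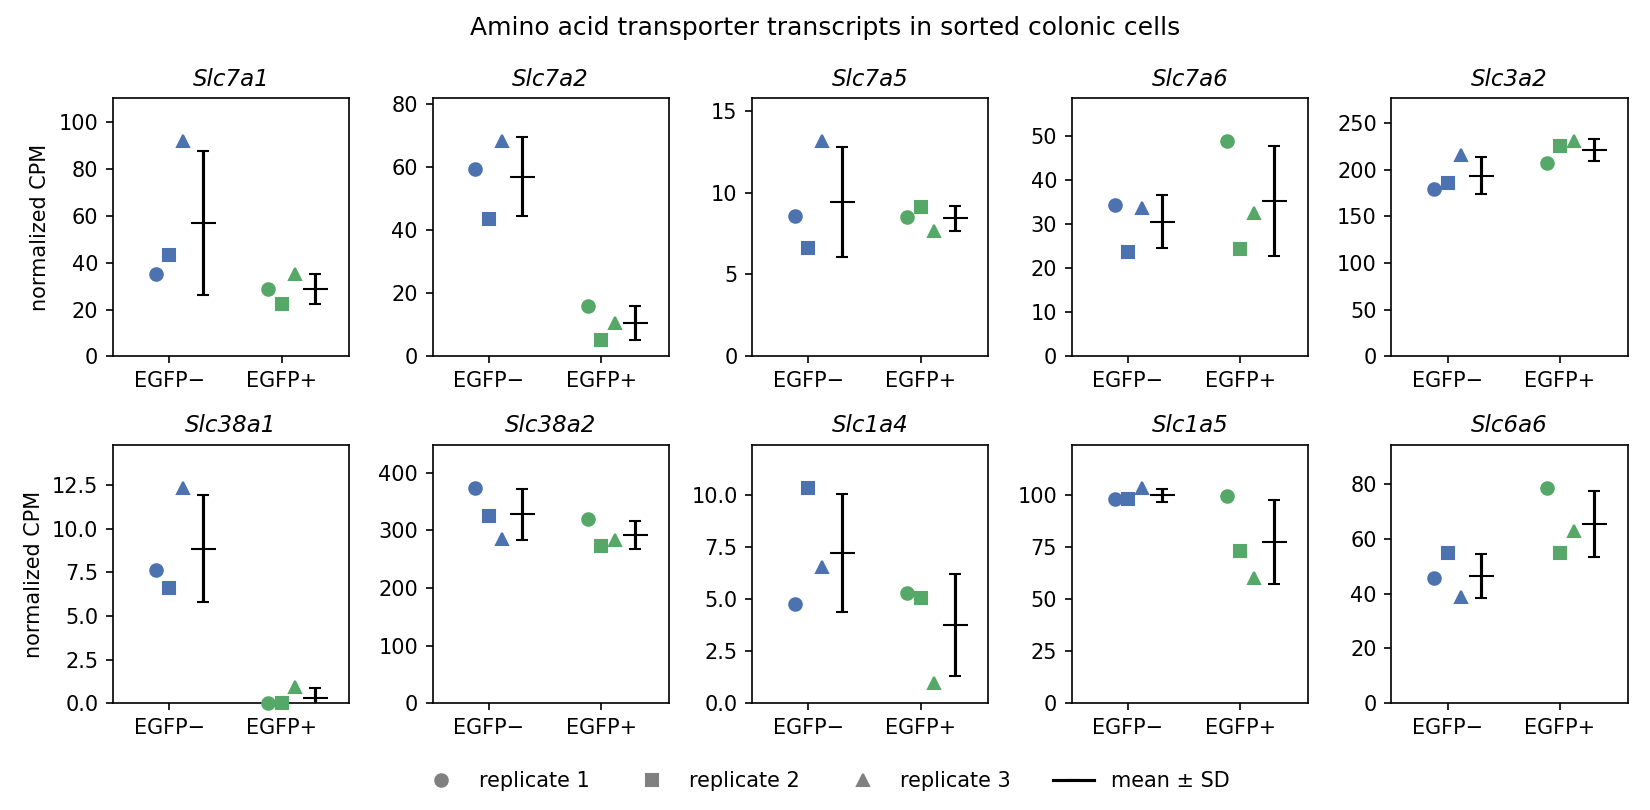
Normalized CPM (vertical axis, linear, from 0, scaled separately for each gene) of the 10 transporter transcripts in EGFP- (blue) and EGFP+ (green) libraries, with replicates 1 to 3 as symbols and the mean ± SD (n = 3) in black. *Slc7a2* and *Slc38a1* show EGFP+ libraries far below EGFP- libraries, whereas *Slc3a2* and *Slc38a2* stand at similar levels in both groups.

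*Slc7a2* (plus strand of chromosome 8, 40862396 to 40922308 in GRCm38) encodes CAT2, which admits arginine, lysine and ornithine and is known to be inducible in inflammation. It had 62, 46 and 83 tags in EGFP- and 15, 5 and 11 tags in EGFP+ replicates 1, 2 and 3. Every EGFP+ library was below every EGFP- library, and the mean was 5.42-fold lower, 56.9 ± 12.6 against 10.5 ± 5.41 normalized CPM (SD, n = 3). On the log2 scale the fold change was -2.44 (SE 0.328, 95% interval -3.13 to -1.75, edgeR adjusted p = 3.25e-05).

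*Slc7a1* (minus strand of chromosome 5, 148327410 to 148399904) encodes CAT1, the widely expressed carrier of the same substrates. It had 37, 46 and 112 tags in EGFP- and 27, 22 and 37 tags in EGFP+ replicates. In normalized CPM EGFP- replicate 3 stood at 92, well above the 35.3 and 43.3 of the other EGFP- libraries, and the lowest EGFP- value met the highest EGFP+ value, 35.29, almost exactly. The log2 fold change of -0.99 (SE 0.32, edgeR adjusted p = 0.0419) fell just short of the fold-change threshold, so *Slc7a1* was not called. With the adjusted p alone it would count as lower, as 8.7% of all tested genes do. The difference leaned on EGFP- replicate 3, without which the log2 fold change was -0.45 (edgeR adjusted p = 0.364), whereas it passed both thresholds without EGFP- replicate 1 (-1.24), EGFP- replicate 2 (-1.15) or EGFP+ replicate 3 (-1.17). Without EGFP+ replicate 1 or 2, and with DESeq2, its adjusted p was 0.1, 0.177 and 0.0708. The groups of *Slc7a1* and *Slc7a2* did not overlap in normalized CPM, 2 of 7 tested transporters on the lower side against 16.7% of all tested genes.

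The makeup of the cationic carriers was also given by their tags. The share of *Slc7a2* in the tags of *Slc7a1* and *Slc7a2* together was 62.6% in EGFP- replicate 1 (95% Clopper-Pearson interval 52.3% to 72.2%), 50% in replicate 2 (39.4% to 60.6%) and 42.6% in replicate 3 (35.5% to 49.8%). In EGFP+ libraries it was 35.7% (21.6% to 52%), 18.5% (6.3% to 38.1%) and 22.9% (12% to 37.3%). All EGFP+ shares were below all EGFP- shares, although the intervals of the 3 EGFP+ libraries overlapped that of EGFP- replicate 3, and that of EGFP+ replicate 1 overlapped that of EGFP- replicate 2 too.

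**Figure D2:**
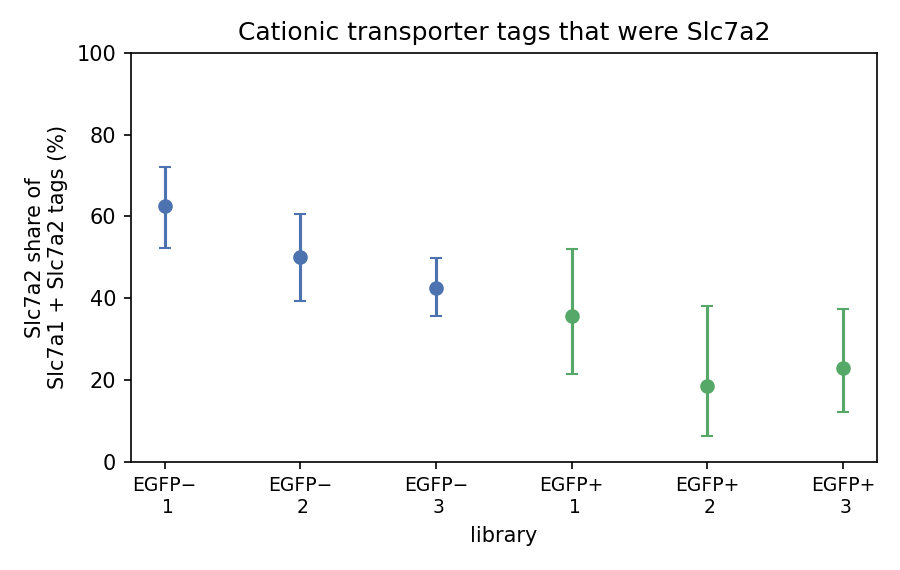
Share of *Slc7a2* among the tags of *Slc7a1* and *Slc7a2* (vertical axis, percent, from 0) in each library (horizontal axis), with 95% Clopper-Pearson intervals as bars. The 3 EGFP- libraries (blue) lie at 42.6% to 62.6% and the 3 EGFP+ libraries (green) at 18.5% to 35.7%.

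Markers of other stromal cell types moved with *Slc7a2*. The 12 markers of smooth muscle and pericytes, led by *Rgs5*, summed to 4968, 5217 and 6157 CPM in EGFP- and to 930.7, 903.4 and 1023 CPM in EGFP+ replicates, and 10 of the 12 were called lower. *Rgs5* itself went from 1648 ± 197 to 190.1 ± 11.6 normalized CPM (SD, n = 3). The other 9 called markers were *Acta2*, *Myh11*, *Des*, *Tagln*, *Cnn1*, *Actg2*, *Myl9*, *Notch3* and *Cspg4*, with *Cnn1*, a marker of contractile smooth muscle, at 67, 95 and 130 tags against 0, 1 and 5. *Kcnj8* and *Abcc9*, the channel subunits in the list, went the other way with log2 fold changes of 0.71 and 0.66 (edgeR adjusted p = 0.0394 and 0.0167), under the fold-change threshold.

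Among markers of enteric glia, *Gfap* and *Cryab*, the latter expressed by other cell types too, were called lower. *Sox10* had 2, 3 and 5 tags and *S100b* had 3, 9 and 4 tags in EGFP- replicates. Both were at 0 tags in every EGFP+ library and were too low to be tested. For interstitial cells of Cajal, the pacemaker cells of the gut, *Ano1* and *Kit* were both called lower and summed to 203.4, 117.8 and 226.5 CPM against 0.956, 0 and 21 CPM. In RNA from sorted populations, fewer cells of a type and less RNA per cell cannot be told apart, and the part of these cell types in the lower *Slc7a2* was not tested. *Cnn1*, *Notch3*, *Gfap* and *Kit* passed the filter through the EGFP- libraries alone.

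Markers of other cell types were low. Immune markers (14 in the files, led by *Cd68*) summed to 23.6, 39 and 29.9 CPM in EGFP- and to 44, 19.6 and 20 CPM in EGFP+ replicates, endothelial markers (9, led by *Plvap*) to 19.9, 14.8 and 20.5 against 1.91, 11.7 and 10.5 CPM, and the 3 mesothelial markers, led by *Upk3b*, to 3.78, 0 and 11.1 against 0, 0 and 0 CPM. None of these markers reached 10 tags in 3 libraries. Of the 10 epithelial markers, led by *Lgals4*, which summed to 31.2, 25 and 55.6 against 8.6, 12.7 and 23.8 CPM, *Lgals4* was called lower, and its adjusted p from edgeR was 0.0605 without EGFP- replicate 3, 0.0742 without EGFP+ replicate 1 and 0.0678 without EGFP+ replicate 2. *Epcam*, which defines epithelium, had 1, 0 and 0 tags against 0, 0 and 1. The 6 red cell genes, led by *Hbb-bs*, varied between libraries of the same group, with 89.9, 0 and 318 CPM in EGFP- and 17.2, 1.96 and 19.1 CPM in EGFP+ replicates. EGFP- replicate 3, which was high for *Slc7a1*, was the highest for these. The same library was the highest for the smooth muscle and pericyte, enteric glia, interstitial cell, epithelial and mesothelial sums too. A link between any of these and *Slc7a1* was not tested.

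Of 5056 tested genes other than the transporters that averaged 30 tags or more, those whose centred log2 CPM over the 6 libraries was most like that of *Slc7a2* included *Prkg1* (root-mean-square difference 0.335) and *Piezo2* (0.362). *Prkg1*, a protein kinase activated by cyclic GMP and abundant in smooth muscle, had 60, 57 and 84 tags in EGFP- and 24, 10 and 20 in EGFP+ replicates. *Piezo2*, a mechanosensitive ion channel, had 79, 49 and 47 against 14, 5 and 13.

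The sodium-coupled neutral carriers SNAT1 and SNAT2 are encoded by *Slc38a1* and *Slc38a2*, which lie on the minus strand of chromosome 15 at 96571418 to 96642913 and 96687392 to 96699730, with 44478 bases between them. Both carry glutamine and alanine, and *Slc38a2* is known to be induced when amino acids are short. The neighbours stood far apart in level. *Slc38a2* had 391, 345 and 347 tags in EGFP- and 301, 268 and 297 tags in EGFP+ replicates, and *Slc38a1* had 8, 7 and 15 tags against 0, 0 and 1.

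All EGFP+ libraries were at or under the floor of 3 tags for *Slc38a1*. Per tag sequenced, *Slc38a1* was 28.3-fold lower in EGFP+ cells, with an exact 95% counting interval of 4.71 to 1155 for 30 tags against 1. It was not tested because only EGFP- replicate 3 reached 10 tags. When the fit took every gene with a tag, it was called lower (edgeR adjusted p = 0.000178). As for *Slc7a2*, the markers of smooth muscle, glia and interstitial cells fell between the groups alongside it, and their part in its level was not tested.

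*Slc38a2* was the most abundant of the 10 transporters in every library. It took 32.8% to 44.1% of their tags in EGFP- and 39.1% to 39.4% in EGFP+ libraries, and its level was 327.8 ± 44.3 against 291.5 ± 24.5 normalized CPM (SD, n = 3). The groups overlapped, and the log2 fold change of -0.17 (SE 0.166, 95% interval -0.52 to 0.18, edgeR adjusted p = 0.571) did not pass the test. The interval lies inside the fold-change threshold on both sides.

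*Slc3a2* (minus strand of chromosome 19, 8706882 to 8723369) encodes the heavy chain, also known as CD98, that brings the exchangers of *Slc7a5* and *Slc7a6* to the membrane. It had 188, 197 and 263 tags in EGFP- and 196, 222 and 242 tags in EGFP+ replicates. It was the second most abundant of the 10 in every library, with 193.7 ± 19.5 and 221.3 ± 12.1 normalized CPM (SD, n = 3), and the log2 fold change was 0.19 (SE 0.16, 95% interval -0.15 to 0.53, edgeR adjusted p = 0.498). Its share of the tags of the 10 genes was 21.2%, 23.3% and 24.9% in EGFP- and 25.6%, 32.6% and 31.8% in EGFP+ replicates.

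The light chains that pair with *Slc3a2* were much lower. *Slc7a5* (minus strand of chromosome 8, 121881150 to 121907694) encodes LAT1, which exchanges glutamine for leucine and other large neutral amino acids. It had 9, 7 and 16 tags in EGFP- and 8, 9 and 8 tags in EGFP+ replicates, so that each library held 16.4 to 30.2 tags of *Slc3a2* for each tag of *Slc7a5*. The ratio of *Slc7a5* between EGFP- and EGFP+ cells was 1.21 per tag sequenced (exact 95% counting interval 0.693 to 2.13), and the groups overlapped.

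*Slc7a6* (plus strand of chromosome 8, 106168857 to 106198706) encodes y+LAT2, which exchanges arginine for glutamine and sodium. With 36, 25 and 41 tags in EGFP- and 46, 24 and 34 tags in EGFP+ replicates it was above *Slc7a5* in every library, and the groups overlapped. Its log2 fold change of 0.20 (SE 0.283, 95% interval -0.40 to 0.79, edgeR adjusted p = 0.723) turned to -0.10 without EGFP+ replicate 1, which had the highest value. Because 5′ tags do not grow in number with transcript length, tags of different genes were compared without dividing by length, although capture and mapping can still differ between genes.

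The neutral amino acid exchangers ASCT1 and ASCT2 are encoded by *Slc1a4* (minus strand of chromosome 11, 20302180 to 20332713) and *Slc1a5* (plus strand of chromosome 7, 16781340 to 16798274). *Slc1a5*, a main route of glutamine entry in dividing cells, had 103, 104 and 126 tags in EGFP- and 94, 72 and 63 tags in EGFP+ replicates. The EGFP- libraries were close together at 99.9 ± 3.06 normalized CPM, and the EGFP+ libraries spread from 60.1 to 99.6. EGFP+ replicate 1 was level with the EGFP- libraries, and the log2 fold change of -0.37 (SE 0.195, 95% interval -0.78 to 0.04, edgeR adjusted p = 0.24) did not pass the test.

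*Slc1a4*, which carries serine, alanine and cysteine, had 5, 11 and 8 tags in EGFP- and 5, 5 and 1 tags in EGFP+ replicates. The summed tags, 24 against 11, gave a ratio of 2.06 (exact 95% counting interval 0.971 to 4.65), so a difference was not detectable at this depth.

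*Slc6a6* (plus strand of chromosome 6, 91684053 to 91759066) encodes TauT, the sodium- and chloride-dependent taurine carrier, which is known to be induced by hypertonic medium. It had 48, 58 and 47 tags in EGFP- and 74, 54 and 66 tags in EGFP+ replicates, or 46.4 ± 8.04 and 65.4 ± 12 normalized CPM (SD, n = 3). It was the tested transporter with the highest log2 fold change, 0.50 (SE 0.217, 95% interval 0.04 to 0.95), and did not pass the adjustment over all genes (edgeR adjusted p = 0.142). In normalized CPM the lowest EGFP+ library, at 54.83, stood barely above the highest EGFP- library, at 54.65, and it was the only 1 of 7 tested transporters whose groups did not overlap on the higher side, against 14.5% of all tested genes.

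**Figure D3:**
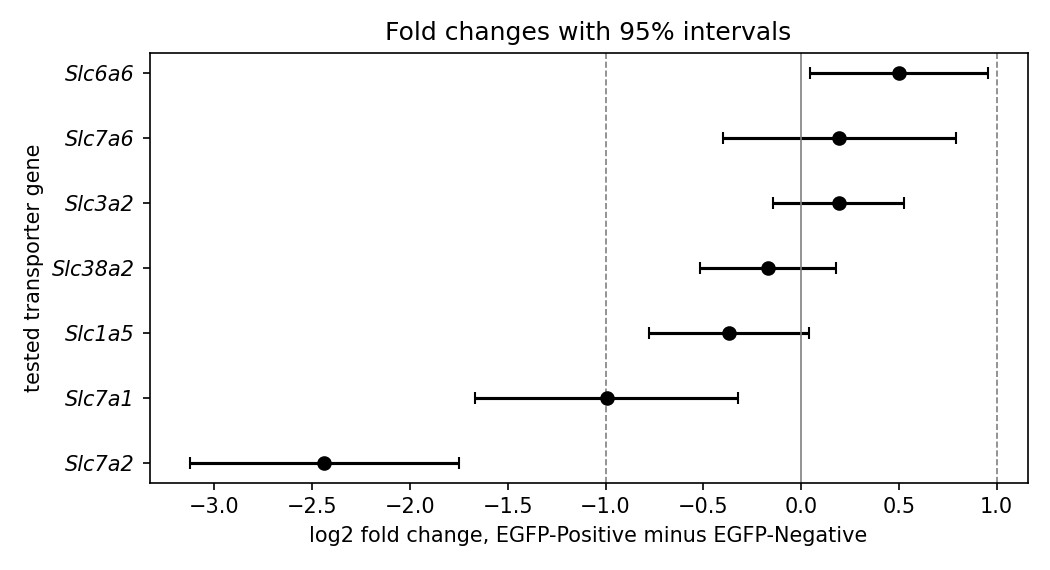
Log2 fold change (horizontal axis, EGFP-Positive minus EGFP-Negative) of the 7 tested transporters (vertical axis) with 95% intervals as bars, and dashed lines at the fold-change threshold of 2. The interval of *Slc7a2*, -3.13 to -1.75, lies wholly below the lower line, and those of *Slc7a1*, *Slc1a5*, *Slc38a2*, *Slc3a2*, *Slc7a6* and *Slc6a6* do not.

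By normalized CPM the order of the transporters in EGFP- cells was *Slc38a2*, *Slc3a2*, *Slc1a5*, *Slc7a2*, *Slc7a1*, *Slc6a6*, *Slc7a6*, *Slc7a5*, *Slc38a1* and *Slc1a4*. *Slc38a2*, *Slc3a2* and *Slc1a5* kept the top places in EGFP+ cells, with no overlap between the libraries of neighbours among them in either group. *Slc7a2*, *Slc7a1* and *Slc6a6* overlapped in EGFP- cells, as did *Slc7a5*, *Slc38a1* and *Slc1a4*. In EGFP+ cells *Slc6a6* followed *Slc1a5*, with which its libraries overlapped, at 65.4 ± 12 normalized CPM, above every library of *Slc7a6* (35.2 ± 12.4) and *Slc7a1* (28.7 ± 6.47), and *Slc7a2* stood with *Slc7a5*, at 10.5 ± 5.41 and 8.41 ± 0.756 (SD, n = 3), where their libraries overlapped.

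Other amino acid transporters, lysosomal and vesicular carriers among them, were also mostly low. Of 32 in the files, 11 were tested and 1 was called, on the higher side, against 3.44% of all tested genes. The median log2 fold change was 0.13. The called gene was *Slc36a2*, which encodes PAT2, a proton-coupled carrier of glycine, alanine and proline. It had 1, 5 and 5 tags in EGFP- and 30, 26 and 25 tags in EGFP+ replicates, and the fit gave an 8.01-fold difference (SE 0.435 on the log2 scale, edgeR adjusted p = 7.15e-05). The groups were far apart, and *Slc36a2* passed the filter through the EGFP+ libraries alone. *Slc7a11*, the cystine carrier, was not called at 16, 15 and 19 against 24, 16 and 48 tags (log2 fold change 0.96, edgeR adjusted p = 0.0785, and 0.0318 with the replicate block, still under the fold-change threshold), but was called higher when every gene with a tag entered the fit (edgeR adjusted p = 0.0267). In this list 2 genes were called higher without EGFP+ replicate 2, and 1 was called lower without EGFP+ replicate 3.

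Among the transporters that were not tested, *Slc38a11*, *Slc6a17* and *Slc6a5*, chosen after their values were seen, also differed between the groups. *Slc38a11*, a relative of *Slc38a1*, had 9, 9 and 16 tags in EGFP- and 0, 0 and 1 tags in EGFP+ replicates, a counting pattern close to that of *Slc38a1*. *Slc6a17*, a vesicular carrier of neutral amino acids in neurons, had 8, 22 and 26 tags against 2, 1 and 0. *Slc6a5*, the glycine carrier of inhibitory neurons, went the other way, with 0, 0 and 1 tags against 4, 10 and 12. When every gene with a tag entered the fit, *Slc38a11* and *Slc6a17* were called lower and *Slc6a5* higher.

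Arginine, the main substrate of the cationic carriers, can also be made in the cell or fed to polyamines. Of 13 tested genes of arginine and polyamine metabolism, 2 were called, both higher, against 3.44% of all tested genes (median log2 fold change -0.01). *Ass1*, which makes argininosuccinate from citrulline for the synthesis of arginine, had 9, 8 and 0 tags in EGFP- and 25, 17 and 33 tags in EGFP+ replicates, a difference of 2.26 on the log2 scale (SE 0.533), with an adjusted p of 0.0061 from edgeR and 0.156 from DESeq2. It passed the filter through the EGFP+ libraries alone, and 19.4% of the 50-nt windows at its 5′ end also occur in the transcripts of *Gm5424*, so its tags can be shared. *Smox*, which oxidizes spermine, had 11, 9 and 17 tags against 52, 47 and 29 (log2 fold change 1.95, SE 0.329, edgeR adjusted p = 0.00034). *Odc1*, which makes putrescine from ornithine, had 187.6 ± 42.1 against 289.3 ± 71 normalized CPM and was not called (log2 fold change 0.62). *Nos2*, the inducible nitric oxide synthase, had 0, 2 and 0 tags in EGFP- and 0, 0 and 0 in EGFP+ replicates.

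Glutamine enters cells through *Slc38a2* and *Slc1a5*. Of 11 tested genes of glutamine and glutamate metabolism, 1 was called higher and 1 lower (median log2 fold change -0.13). Of all tested genes 3.44% were called higher and 6.37% lower. The called genes of the list were the paralogs that commit glutamine and fructose 6-phosphate to the hexosamine pathway. *Gfpt2* had 1033, 1009 and 1238 tags in EGFP- and 267, 357 and 473 tags in EGFP+ replicates (log2 fold change -1.43, SE 0.183, edgeR adjusted p = 1.89e-05). *Gfpt1* had 40, 55 and 66 tags against 93, 94 and 122 (log2 fold change 1.10, SE 0.195), and fell under the fold-change threshold without EGFP- replicate 1 (0.96). The paralogs thus went in opposite directions, *Gfpt2* being the more abundant in every library. *Glul*, glutamine synthetase, had 930, 640 and 469 tags against 361, 275 and 305, a log2 fold change of -0.98 (edgeR adjusted p = 0.00728) that missed the fold-change threshold. The number of genes of this list called lower was 2 with the adjusted p alone, with scaling by library size only, when 10 tags were required in all libraries, without EGFP- replicate 3 and without EGFP+ replicate 1.

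ATF4 and its target genes answer to amino acid shortage. Of 19 tested genes of this response, 1 was called higher and 3 lower (median log2 fold change 0.04). Of all tested genes 3.44% were called higher and 6.37% lower. *Atf3* had 1152, 1487 and 780 tags in EGFP- and 219, 303 and 155 tags in EGFP+ replicates (log2 fold change -2.19, SE 0.27, edgeR adjusted p = 1.27e-05). It encodes an early-induced transcription factor that many other stimuli raise too. *Vldlr*, a lipoprotein receptor, had a log2 fold change of -1.82 (SE 0.388), and *Stc2*, a secreted stanniocalcin, of -1.72 (SE 0.45), with an adjusted p from edgeR of 0.108 without EGFP- replicate 2 and 0.0514 without EGFP+ replicate 3. *Ddit4*, an inhibitor of mTORC1, was higher at 184, 144 and 72 against 270, 234 and 233 tags (log2 fold change 1.02, SE 0.262), and fell under the fold-change threshold without EGFP- replicate 3 (0.67), without EGFP+ replicate 1 (0.91), with scaling by library size only (0.94) and when 10 tags were required in all libraries (0.98). The called genes of this list did not share a direction.

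The mTORC1 list holds the sensors and complexes through which amino acids activate that kinase. Of its 22 tested genes 1 was called, on the higher side, against 3.44% of all tested genes (median log2 fold change 0.09). *Flcn*, folliculin, which acts on the Rag GTPases, had 25, 19 and 21 tags in EGFP- and 58, 36 and 39 tags in EGFP+ replicates (log2 fold change 1.19, SE 0.284), with an adjusted p of 0.0535 from edgeR without EGFP+ replicate 1. *Sesn1*, a leucine-binding sestrin, was not called (log2 fold change -1.22, edgeR adjusted p = 0.0884) but was called lower with the replicate number as a block (-1.07, edgeR adjusted p = 0.0131) and when every gene with a tag entered the fit (edgeR adjusted p = 0.004), at 73, 22 and 18 against 16, 15 and 13 tags. EGFP- replicate 1 carried most of this difference, and without it 0 genes of the list were called lower with edgeR, whereas 1 was without EGFP- replicate 3.

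Of 12 tested genes of branched-chain amino acid breakdown, 1 was called, on the lower side, against 6.37% of all tested genes (median log2 fold change 0.02). This was *Ivd*, isovaleryl-CoA dehydrogenase of leucine breakdown, with 38, 40 and 56 tags against 14, 8 and 18 (log2 fold change -1.57, SE 0.303, edgeR adjusted p = 0.00119). Of 9 tested genes of taurine and other osmolytes, 1 was called, on the higher side, against 3.44% of all tested genes (median log2 fold change 0.29). *Slc5a3*, the *myo*-inositol carrier, had 40, 35 and 29 tags against 80, 56 and 68 (log2 fold change 1.12, SE 0.239), and fell under the fold-change threshold without EGFP- replicate 3 (0.95) or EGFP+ replicate 1 (0.96). It overlaps *Mrps6* on the same strand, and 21.9% of its 5′ windows also occur in the transcripts of other genes, so its tags are uncertain. *Nfat5*, the factor that induces osmolyte carriers in hypertonic medium, had a log2 fold change of 0.07.

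The aminoacyl-tRNA synthetases load the imported amino acids onto tRNA. The list also holds scaffold proteins of the synthetase complex, *Aimp1*, *Aimp2* and *Eef1e1*. All its 23 genes in the files were tested, and 1 was called, on the higher side, against 3.44% of all tested genes. The median log2 fold change was 0.20. *Mars*, the methionine enzyme, had 15, 12 and 18 tags against 24, 24 and 37 (log2 fold change 1.07, SE 0.306, edgeR adjusted p = 0.0219). Its call was lost without EGFP- replicate 1 (adjusted p = 0.0525), EGFP- replicate 2 (0.0903) or EGFP+ replicate 3 (0.107), with DESeq2 (0.0657) and with scaling by library size only (log2 fold change 0.99). *Nars*, the asparagine enzyme, had 83.1 ± 12 against 151.3 ± 17.4 normalized CPM and a log2 fold change of 0.86, under the fold-change threshold. Of 12 proliferation genes, which summed to 274.3, 239.3 and 254.7 CPM in EGFP- and to 193, 222.9 and 221.2 CPM in EGFP+ replicates, 3 were tested and 0 were called in either direction, with edgeR, with DESeq2 and at an unadjusted p under 0.05. Of the 11 fibroblast markers 2 were called, *Col3a1* and *Pdpn*, both higher. With the adjusted p alone 4 would count as higher and 1, *Lum* (log2 fold change -0.64), as lower. *Col3a1* and *Pdpn* had log2 fold changes of 1.04 and 1.06 that fell under the threshold without EGFP- replicate 1 (0.85 and 0.96), with scaling by library size only (0.95 and 0.97) and, for *Pdpn*, without EGFP+ replicate 1 (0.96). *Col3a1* overlaps *Gm47302* on the same strand, and 6.72% of its 5′ windows also occur in the transcripts of that gene, so its tags can be shared.

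To see whether transporters could share tags with paralogs, their 5′ sequences were compared with all other transcripts. None of the 50-nt windows in the first 300 nt of the GENCODE transcripts of the 10 genes occurs in transcripts of another gene, 0 of 502 for *Slc38a2* and 0 of 915 for *Slc7a2*. Only exact matches were sought, whereas the authors mapped tags to RefSeq RNA with mismatches allowed. The comparison therefore cannot tell whether tags were shared between similar but not identical stretches. *Slc7a2* has 5 annotated transcripts, all protein-coding, and the tag counts do not separate them. RefSeq promoters (250 bases before to 50 after the start, GRCm38.p6) were at hand for 5 of the 10 transporters, *Slc7a1*, *Slc7a6*, *Slc3a2*, *Slc38a2* and *Slc1a4*. They were searched on both strands for TGATGNAA, the core of the amino acid response element that ATF4 binds with C/EBP factors, CACGTG (E-box), TGANTCA (AP-1) and TTCNNNGAA (STAT), which 4.51%, 8.09%, 8.97% and 9.55% of the 27025 genes in the table hold in at least 1 promoter. The response element core was found in *Slc1a4* and CACGTG in 0 of the 5, and *Slc1a4* itself was too low to be tested. Both other motifs were found in *Slc7a1*, which has 2 promoters in the table. The stretches around the *Slc7a1* matches are given because *Slc7a1* is the only transporter of the 5 with an edgeR adjusted p under 0.05. The *Slc1a4* stretch is given as the only match to the response element core among the 5. Matches are in capitals, and the stretches read 5′ to 3′ on the strand of the gene.
*Slc7a1* AP-1 match, chr5:148400011-148400037, minus strand, 116 bases before the start: ccatcagctcTGACTCAagctcagttg
*Slc7a1* STAT match, chr5:148392943-148392971, minus strand, 137 bases before the second start: agggccactcTTCAAAGAAgccctttgaa
*Slc1a4* response element core, chr11:20332700-20332727, minus strand, across the start and on the opposite strand of the gene: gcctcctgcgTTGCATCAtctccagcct
A match describes the letters of the window and shows neither binding nor use in these cells.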

How the data were processed

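For the 5′Tag-seq reads, the authors used Cutadapt 1.18 for trimming and Bowtie2 2.2.5 for mapping to RefSeq RNA of mm10, one orientation being allowed, and deposited unscaled tag counts per gene symbol. Whether multi-mapping tags were counted, and whether molecular identifiers were used, is not given in the sources used here. Groups come from the sample labels. The methods test with TCC and edgeR, and their printed filter of 10 tags was read as keeping genes at or above it.

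Here, genes reaching 10 tags in 3 or more of the 6 libraries were tested in R 4.3.3 with edgeR 4.0.16 (TMM, glmQLFit and glmQLFTest, Benjamini-Hochberg adjustment over all tested genes), after the code was tested on simulated data. Standard errors were computed from the fold change and its F statistic. Ratios of low genes use summed tags per summed library totals with exact binomial intervals. Totals of 1022851 to 1169817 tags place the floor of 3 tags at 2.56 to 2.93 CPM.

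The members and lists were chosen with earlier results of these data known. Genes named are the 10 transporters, called members of the other amino acid lists, genes among the most like a called transporter (log2 CPM with a prior count of 2), *Il11*, and abundant or called cell type markers. Genes outside this rule, *Slc7a11*, *Slc38a11*, *Slc6a17*, *Slc6a5*, *Nos2*, *Odc1*, *Glul*, *Sesn1*, *Nfat5*, *Nars*, *Kcnj8*, *Abcc9*, *Sox10*, *S100b* and *Epcam* among them, were named after seeing their values. Genomic positions come from GENCODE mouse release M21 (GRCm38).

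Replicate numbers come from the labels, and the methods name 3 mice. Same-numbered libraries of both groups deviated together from their group means (r = 0.231, 0.209 and 0.27 across 5064 genes averaging 30 tags or more, which are not independent replicates). The numbers were therefore taken as pairing the libraries. The main fit did not use this pairing, which entered only in the alternative with the replicate number as a block. Alternatives were RLE, library size only, iterative TMM after TCC (3 iterations), DESeq2 1.42.0, no filter, 10 tags in all 6 libraries, the replicate number as a block, the adjusted p alone, and each library left out in turn with the same tested genes. Proteins were not analysed here.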

Additional observations from a re-analysis of the deposited data

How the results depend on the processing

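No transporter was called higher under any of the 14 alternatives. *Slc7a2* was called lower in all 13 alternatives that tested it, with log2 fold changes of -2.84 to -2.11, and was not tested when 10 tags were required in all libraries, since EGFP+ replicate 2 had 5. The number of transporters called lower rose from 1 to 2 with scaling by library size only, with the adjusted p alone (both through *Slc7a1*) and with no filter (through *Slc38a1*), and ranged from 1 to 2 when a library was left out. When 10 tags were required in all libraries it was 1, with *Slc7a1* in place of *Slc7a2*. *Slc7a1* was called in 6 of 14 alternatives, with log2 fold changes of -1.24 to -0.45 and adjusted p from 0.00272 to 0.364 (edgeR and DESeq2). *Slc7a6*, *Slc3a2*, *Slc38a2*, *Slc1a5* and *Slc6a6* were called in none.

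Over all genes, 638 were called higher with the adjusted p alone against 321, and 256 lower against 595 when 10 tags were required in all libraries, a filter that takes out genes low in either group and left 7098 to test. With the replicate block, 337 genes were called higher and 648 lower, with 0 transporters higher and 1 lower, and among the genes named here it changed the call of *Sesn1* and of no other. Depth limits *Slc7a5*, *Slc38a1* and *Slc1a4*, whose libraries held 16 tags at most.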
